A study of Phaseolus vulgaris with 21 samples.

Results

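Gene expression in the floral nectary of common bean, Phaseolus vulgaris, was compared between the secretory stage and 24 h earlier, over the whole transcriptome table. The comparison used 6 of the 21 libraries of the study, 3 a side, chosen by their labelled stage, and all 6359 rows of the table. The study profiled 7 tissues in 3 libraries each: leaf, 2 kinds of extrafloral nectary and floral nectaries at 4 stages 12 h apart. The 4 stages are called here pre1, pre2, secretory and post. At pre1, nectaries were taken 24 h ahead of anthesis, the opening of the flower. Secretory nectaries came from fully open flowers, 3 h after dawn. Both groups are of the cultivar Blue Lake 274, with no treatment, grown at 23 °C under 16 h of light and 8 h of dark. Nectaries were cut out manually before immediate RNA extraction. With 24 h between them, both fall at a similar hour of the day, although the labels give a time relative to dawn for the secretory stage only.

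Nectaries are glands that release a sugary fluid to attract pollinators. In the eccrine model of secretion, sucrose is made in the gland from stored starch or imported sugar, leaves the cell through SWEET sugar transporters and is split outside by a cell wall invertase, which draws out water. In Arabidopsis, the YABBY factor CRABS CLAW is needed to form the nectary, and the related factors MYB21, MYB24 and MYB57 act in its maturation.

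Each row is a soybean transcript to which bean reads were assigned, and a gene name below refers to that soybean transcript; close copies may share reads. Values are the deposited upper-quartile-normalized values in whole numbers. A change is a log2 fold change of the value + 1, secretory minus pre1, given ± its SE, and a fold is the same change on the linear scale. A row was called where limma's adjusted p (Benjamini-Hochberg over all rows) was below 0.05. P-values measure the spread between libraries, and nothing in the labels says that these came from different plants, so that spread may be technical. Values are not scaled by transcript length, so levels are not compared between genes, except that the rows with the highest secretory mean are picked out, an order that length also affects.

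The 6 libraries summed to 3447595 to 4139517 over the table, within the 2616502 to 4270943 of the whole series. The 3 secretory libraries agreed closely, with correlations across transcripts of 0.983 to 0.986 on the log2 scale. Library 1 of pre1 stood somewhat apart: it correlated at 0.961 and 0.955 with the other pre1 libraries, which correlated at 0.981 with each other. In library 1 of pre1, 240 of 5863 transcripts were at least 2-fold above both other pre1 libraries and 79 were at least 2-fold below both. For many results that rest on it, though not all, values without it are given too. Without it, 1410 rises and 1031 falls were called, in place of 1604 and 1315. In library 1 of the secretory stage the lowest value was 1, and every other library held zeros, so the table appears to be filtered on that library, and transcripts absent from it are not analysed here. Transcripts near zero were found almost solely on the pre1 side: 196 called rises start from a pre1 mean of 3 or less, and 1 called fall ends at such a mean.

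Over the 24 h, 2919 of the 6359 transcripts (45.9%) differed between the stages. The rises numbered 1604 (25.2%) and the falls 1315 (20.7%), while the median change over all rows was 0.00. Rises were larger than falls, with a median size of 1.41 against 0.99 on the log2 scale. At least 2-fold changes were called in 1071 rises (16.8%) and 645 falls (10.1%). The apparent filter on secretory library 1 keeps transcripts near zero at pre1 but not at the secretory stage, which favours larger rises. Its part in these sizes was not tested. The libraries of both stages did not overlap at 2021 rows with higher secretory values (31.8%) and at 1860 rows with lower ones (29.2%). When the libraries were set to equal upper quartiles, the median change moved to -0.09 and the share of calls that were rises moved from 55.0% to 47.8%. Counts of each list below are to be read beside the 25.2% of rises and 20.7% of falls over all rows.

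**Figure D1:**
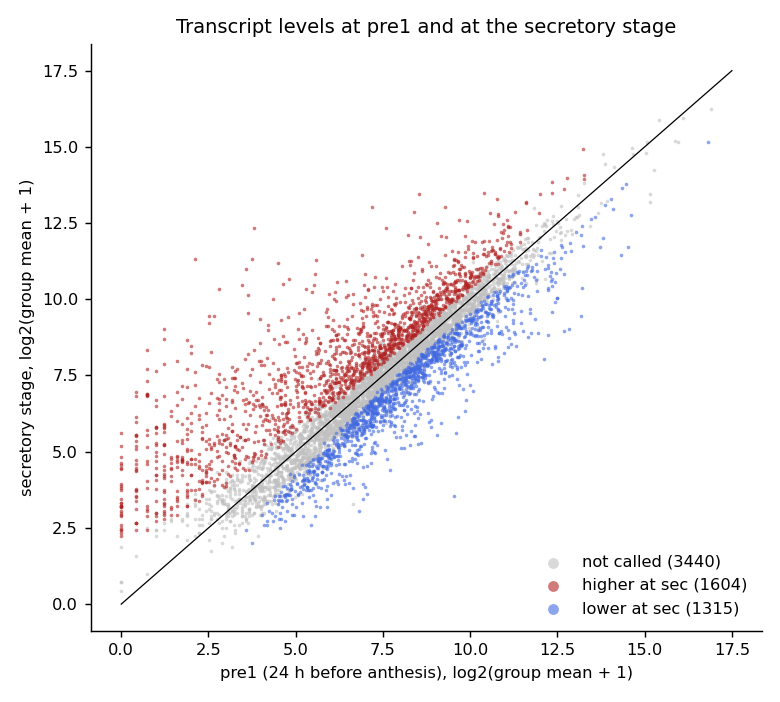
Level of each of the 6359 transcripts at pre1 (x axis) and at the secretory stage (y axis), both as log2 of the group mean + 1; each point is a transcript, red and blue mark the called rises and falls, and the line marks equal levels. The 1604 rises reach farther from the line than the 1315 falls, and transcripts near zero lie along the left edge and hardly along the lower one. The apparent filter on secretory library 1 favours both.

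The 10 most increased and 10 most decreased transcripts were taken from called rows with no overlap and a mean of at least 492.9 at the higher stage. Of these 10 increases, 4 were in enzymes that take apart nucleic acids and proteins. EN1, an endonuclease matched to the Arabidopsis bifunctional nuclease BFN1, which degrades DNA and RNA in dying cells, had values of 3, 4 and 3 at pre1 and 3211, 2246 and 2273 at the secretory stage. Every secretory library thus stood far above every pre1 library. The change was 9.20 ± 0.58, a 590-fold rise on the value + 1 scale (limma adjusted p = 8.04e-10). Most of it fell in the last 12 h: EN1 stood at 23, 24 and 12 at pre2, and the step from pre2 to the secretory stage measured 7.00 ± 0.58.

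LOC100781510, a metacaspase-9, belongs to a family of cysteine proteases that act in plant cell death. It went from 15, 9 and 15 at pre1 to 6258, 5295 and 4031, with no overlap, a rise of 8.55 ± 0.40 (limma adjusted p = 1.32e-11). LOC547964, matched to the vacuolar processing enzyme beta-VPE, a protease that matures and activates vacuolar proteins, went from 11, 8 and 18 to 2507, 3121 and 2091. Its groups were again far apart, and the rise was 7.64 ± 0.35 (limma adjusted p = 1.32e-11). LOC100305644, matched to ribonuclease RNS1, which is induced by wounding and phosphate shortage in Arabidopsis, went from 6, 7 and 20 to 2730, 1770 and 1613. This was a rise of 7.55 ± 0.59 (limma adjusted p = 1.09e-08).

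The other six of these increased transcripts have varied roles. The small heat shock protein HSP18.5-C, a chaperone that holds unfolding proteins, measured 2, 0 and 2 at pre1 and 538, 535 and 495 at the secretory stage, a change of 7.97 ± 0.50. LOC100819509, a membrane protein of the DUF679 family, rose by 7.58. LOC100804829, a peroxidase 15-like, rose by 7.51, and its pre1 values were uneven, at 42, 1 and 21. LOC100306504, of the LURP-one family, rose by 7.05. The remaining pair are transcription factors linked to drought and abscisic acid in Arabidopsis. LOC100811301, a NAC72-like factor, went from 2, 5 and 7 to 825, 710 and 559, and LOC100793260, an ATHB-7-like homeobox factor, from 8, 9 and 13 to 1910, 1383 and 964, changes of 7.04 and 6.98. In all 10, the libraries of the stages did not overlap, as their choice required.

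**Figure D2:**
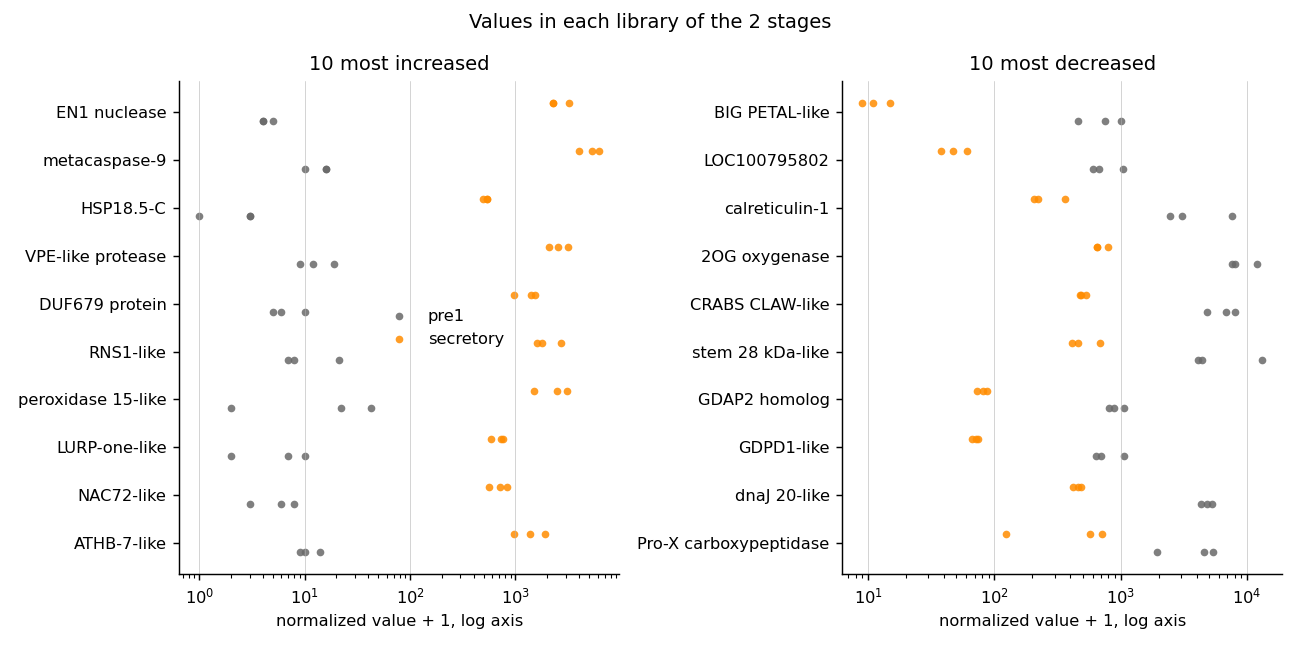
Value + 1 in each library (log axis) of the 10 most increased (left) and 10 most decreased (right) transcripts among called rows with no overlap and a mean of at least 492.9 at the higher stage; grey points are the 3 pre1 libraries and orange points the 3 secretory libraries. The most increased start at 0 to 42 and end at 495 to 6258, and none of the 20 transcripts has groups that overlap.

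The list of senescence and cell death genes held 15 rows, of which 10 rose, 1 fell and 4 were not called, with a median change of 1.38 against 0.00 over all rows. Beside EN1 and the RNS1-like enzyme, LOC547566, matched to SAG21, went from 292, 238 and 480 to 8582, 6550 and 7123, a rise of 4.51 ± 0.32 (limma adjusted p = 3.41e-09). SAG21 is a late embryogenesis abundant protein of the mitochondrion that rises in ageing leaves. CYSP1, a cysteine proteinase among the 10 rows with the highest secretory mean, is on the same list and was not called, with 22390, 30446 and 23805 against 35817, 31898 and 28456. Its ranges overlapped. The 1 fall was not stable, at 0 to 2 when 1 library was left out, and the rises then numbered 8 to 10.

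Autophagy, which delivers cell contents to the vacuole, had 5 rises, 0 falls and 4 uncalled among 9 rows. The changes were small: LOC732654 (ATG9, a membrane protein of the forming autophagosome) rose by 1.30 ± 0.22, LOC100818620 (ATG8f, which coats it) by 1.19 ± 0.20 and LOC100787427 (ATG18a) by 0.92 ± 0.17. ATG8f measured 195, 282 and 253 at pre1 and 560, 571 and 517 at the secretory stage, with no overlap. The proteasome list was split by part of the particle: 5 of 14 rows rose and 4 fell. The 5 rises were all non-ATPase subunits of the regulatory particle, such as LOC100785835 (0.95 ± 0.19), and of the 4 falls 3 were alpha subunits of the core particle, such as LOC100820387 (-0.64 ± 0.17). The other fall was an activator subunit. This split was noticed after the values were seen and its counts were not stable: the rises numbered 2 without secretory library 1, without pre1 library 2 or at equal upper quartiles, and 3 without secretory library 3 or pre1 library 1. The falls numbered 2 without secretory library 1.

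The 10 most decreased transcripts included regulators of organ form. LOC100306638, matched to BIG PETAL P, a bHLH factor that limits petal cell expansion in Arabidopsis, went from 1004, 745 and 459 at pre1 to 14, 8 and 10, a fall of 5.94 on the log2 scale (SE 0.60, limma adjusted p = 2.48e-07). All 3 pre1 libraries stood far above the secretory ones. LOC100500026, matched to CRABS CLAW, went from 8113, 6811 and 4789 to 484, 479 and 528. All 3 pre1 libraries lay well above the secretory ones, and the change was -3.69 ± 0.20, a 12.9-fold fall (limma adjusted p = 9.16e-11). About equal parts of it fell in each step: -1.82 to pre2 and -1.87 from there. In these bulk samples, fewer cells of a type and less RNA of a gene per cell cannot be told apart.

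LOC100037475, a calreticulin-1, is a calcium-binding chaperone of the endoplasmic reticulum. Its values were 7659, 3053 and 2482 at pre1 and 222, 204 and 362 at the secretory stage, so pre1 library 1 was highest and the groups did not overlap. The change was -3.92 ± 0.35 (limma adjusted p = 4.85e-08). LOC100776159, a 2-oxoglutarate-dependent oxygenase, went from 8114, 12117 and 7681 to 648, 653 and 798, a change of -3.71 ± 0.34. LOC100784637, a plastid DnaJ 20-like co-chaperone, went from 4349, 5320 and 4805 to 461, 482 and 420, a change of -3.40 ± 0.31.

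Of the other 5 most decreased, LOC100795802, matched to a heat-inducible transcription repressor, changed by -3.97 ± 0.52, LOC100818380, a GDAP2 homolog, by -3.50 ± 0.42, and LOC100807698, a glycerophosphodiester phosphodiesterase, by -3.47 ± 0.81. LOC100795218, a stem 28 kDa glycoprotein-like vegetative storage protein, changed by -3.60 ± 0.94, with 13269, 4094 and 4378 at pre1, so library 1 of pre1 carried much of its pre1 mean. LOC100781698, a lysosomal Pro-X carboxypeptidase-like protein, measured 717, 573 and 123 at the secretory stage and changed by -3.29 ± 0.94. Its call was lost without secretory library 3 (-2.50, limma adjusted p = 0.0527).

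No transcript of the nectar list was called higher at the secretory stage. Of its 9 rows, regulators and secretion genes that also mark the tissue, 0 rose, 5 fell and 4 were not called, with a median change of -0.71. None of the 9 was at 0 throughout either stage, which the apparent filter on secretory library 1 fixes in advance for the secretory stage. The falls numbered 3 without secretory library 1, pre1 library 2 or pre1 library 3. Beside the CRABS CLAW match, 2 of the 3 MYB24 matches fell. MYB98 went from 4314, 6360 and 4921 to 807, 688 and 778 (-2.76 ± 0.38, limma adjusted p = 9.43e-06), and MYB182 from 2444, 3494 and 2778 to 507, 459 and 539 (-2.52 ± 0.34, limma adjusted p = 7.45e-06). Neither had overlapping groups, and in both the step from pre2 to the secretory stage was called and the earlier step was not.

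The third match, LOC100816972, is the myb-related protein 305, whose tobacco counterpart switches on genes of nectar proteins. It measured 4629, 7910 and 10018 at pre1 and 4745, 5362 and 4698 at the secretory stage, with ranges that overlapped, and was not called (-0.54 ± 0.54, limma adjusted p = 0.435). The auxin response factor 8-like LOC100814479, of a pair of factors with a role in nectary formation in Arabidopsis, passed narrowly, at 2608, 2686 and 2788 against 1700, 2256 and 1828 (-0.49 ± 0.18, limma adjusted p = 0.0313). LOC100816086, an NPR5-like match of the BLADE-ON-PETIOLE genes that shape the Arabidopsis nectary, measured 219, 185 and 281 against 283, 334 and 303. It was not called (0.44 ± 0.19, limma adjusted p = 0.0646), but was called higher without pre1 library 3 (0.60, limma adjusted p = 0.0225). The call of LOC100814479 was lost without any 1 of 5 of the 6 libraries, pre1 library 1 among them.

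LOC100810946, described as SWEET13-like, was matched to several Arabidopsis genes, among them SWEET9, the sucrose exporter of the nectary. Its values were 28795, 77194 and 105664 at pre1 and 61724, 48909 and 76977 at the secretory stage, so the pre1 libraries spread around the secretory ones, with library 1 lowest. The change was -0.01 ± 0.46 (limma adjusted p = 0.994). Its highest values were at pre2, at 138070, 123228 and 130399, but neither 12-h step was called. Cell wall invertase, which splits the exported sucrose, was matched by 2 rows. LOC100777418, matched to CWINV4, went from 30297, 44542 and 43543 to 14325, 15406 and 27792 without overlap, and was not called in the fit over all libraries (-1.09 ± 0.56, limma adjusted p = 0.123). In a fit of the 6 libraries alone it was called, with the same change (limma adjusted p = 0.0245). CWINV went from 17609, 22275 and 22957 to 11746, 11440 and 15201 (-0.71 ± 0.26, limma adjusted p = 0.0334). Its call was lost without any 1 of 4 of the 6 libraries, with adjusted p up to 0.104.

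The list of sugar transport includes the SWEET13-like row. Of its 13 rows, 4 rose, 2 fell and 7 were not called, beside 25.2% rises and 20.7% falls over all rows. The median of -0.01 is the change of the SWEET13-like row. A SWEET14-like row, LOC100810962, went from 115, 98 and 146 to 799, 436 and 411, a rise of 2.14 ± 0.33 with no overlap (limma adjusted p = 3.12e-05). STP1, a monosaccharide transporter that takes hexoses into cells, went from 14, 7 and 14 to 104, 90 and 97 (3.01 ± 0.29). A putative UDP-sugar transporter, LOC100777622, fell by 1.07 on the log2 scale. SUT1, a sucrose-proton symporter and the only row on the phloem list, measured 1129, 1345 and 1386 against 1165, 1004 and 878 and was not called (-0.34 ± 0.15).

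The list of sucrose metabolism had 3 rises, 5 falls and 3 uncalled in 11 rows and a median of -0.68, beside 25.2% rises and 20.7% falls over all rows. Its rises numbered 2 without secretory library 1 or pre1 library 1. The falls numbered 3 when secretory library 1 or 2, or pre1 library 2 or 3, was left out. LOC100802045, a sucrose synthase 2, which splits sucrose into UDP-glucose and fructose, went from 87926, 135132 and 123065 to 30169, 31764 and 46905. The lowest pre1 library stood above the highest secretory one, and the change was -1.68 ± 0.36 (limma adjusted p = 0.000908). The sucrose-phosphatase LOC100796915, which performs the last step of sucrose synthesis, went from 2564, 4299 and 3229 to 856, 730 and 877 (-2.01 ± 0.24, limma adjusted p = 2.61e-06). A second sucrose-phosphatase match, LOC100781497, moved the other way, from 10, 1 and 20 to 152, 149 and 107 (4.13 ± 0.55). The mitochondrial-type neutral invertase LOC100785091 rose by 1.49 ± 0.27.

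LOC100500640, matched to an inhibitor of cell wall and vacuolar invertases, had the highest secretory mean of the table, with 65027, 70960 and 95097, against 80240, 142061 and 145850 at pre1. The ranges overlapped, and it was not called (-0.64 ± 1.06, limma adjusted p = 0.648). That SE also draws on the extrafloral nectaries, at 9, 7 and 3 in leaf and 2, 247 and 350 in stem. Of the 10 rows with the highest secretory mean, only sucrose synthase 2 and LOC100787543, a heat shock cognate 70 kDa protein, were called. The others include albumin 1 (A1, -0.82 ± 0.99), the cysteine proteinase RD21a-like LOC100807362 (-0.62 ± 0.28), the alpha/beta-hydrolase LOC100101840 (0.40 ± 0.58) and the small secreted GAST1 homolog LOC100500115 (0.24 ± 0.74). Albumin 1 and RD21a-like had no overlap between the stages, and the libraries of the other rows overlapped. The SE of albumin 1 also draws on the extrafloral nectaries, at 6, 9 and 75 in leaf and 2, 112 and 121 in stem. RD21a-like was called without pre1 library 1 (-0.84, limma adjusted p = 0.0275).

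Starch is the usual store from which nectar sugar is drawn, and beta-amylases, which release maltose from it, were the members of the starch lists that changed most. BMY2 went from 303, 392 and 641 to 3996, 3520 and 3257, an 8.42-fold rise (3.08 ± 0.27, limma adjusted p = 4.49e-08). A BMY1 transcript matched to beta-amylase BAM6 went from 76, 53 and 43 to 430, 715 and 532 (3.27 ± 0.35). The inactive beta-amylase-like transcript, by its name not an active enzyme, went from 528, 817 and 1540 to 6021, 6744 and 5400 (2.79 ± 0.27). None of these had overlapping groups. The row described as inactive had reached 4002, 5238 and 3990 by pre2, while the BAM6-like row was still at 47, 50 and 46 there.

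The whole starch breakdown list counted 5 rises, 3 falls and 4 uncalled among 12 rows, with a median of 0.12, beside 25.2% rises and 20.7% falls over all rows. It counted 4 rises and 1 fall without secretory library 2. On the synthesis side, 1 of 5 rows rose, 1 fell and 3 were not called (median -0.10). Plastid phosphoglucomutase LOC100778321, which supplies the glucose 1-phosphate for starch, went from 18877, 30170 and 25497 to 6057, 6137 and 8516 (-1.84 ± 0.36, limma adjusted p = 0.000385). The large subunit of ADP-glucose pyrophosphorylase, LOC100786313, rose at low values, from 29, 16 and 27 to 64, 61 and 74 (1.47 ± 0.42).

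Enzymes of central carbon metabolism fell more often than they rose. In the list of glycolysis and respiration, 7 of 12 rows fell, 1 rose and 4 were not called, with a median of -0.79. The summed level of the list was 56835 to 62815 in the pre1 libraries and 27966 to 31486 in the secretory ones. The NADP-isocitrate dehydrogenase LOC100786103 went from 2572, 2148 and 1756 to 915, 727 and 845 (-1.37 ± 0.17, limma adjusted p = 3.22e-06). AOX1, the alternative oxidase that bypasses part of the respiratory chain, was the 1 row that rose, from 1, 0 and 0 to 12, 8 and 12. In the hypoxia list 1 of 5 rows rose and 0 fell. That row, the RAP2-2-like factor LOC100780763, went from 3, 0 and 2 to 13, 8 and 2, with overlap, and its call was lost without secretory library 1 (limma adjusted p = 0.178), secretory library 2 (0.112) or pre1 library 2 (0.208).

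The nitrogen list had 1 rise, 4 falls and 8 uncalled in 13 rows, beside 25.2% rises and 20.7% falls over all rows. Its median was -0.07, and 0.05 without pre1 library 1. Its falls numbered 3 whichever of the 6 libraries was left out. The proline pathway moved in opposite directions at its ends. PDH, a proline dehydrogenase, which oxidizes proline, went from 52, 49 and 70 to 762, 776 and 770 (3.75 ± 0.46, limma adjusted p = 3.08e-06). P5CS, which makes its precursor, went from 109, 92 and 70 to 15, 20 and 9 (-2.58 ± 0.33). The cytosolic glutamine synthetase GS1beta2, which fixes ammonium, fell by 1.48 on the log2 scale.

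**Figure D3:**
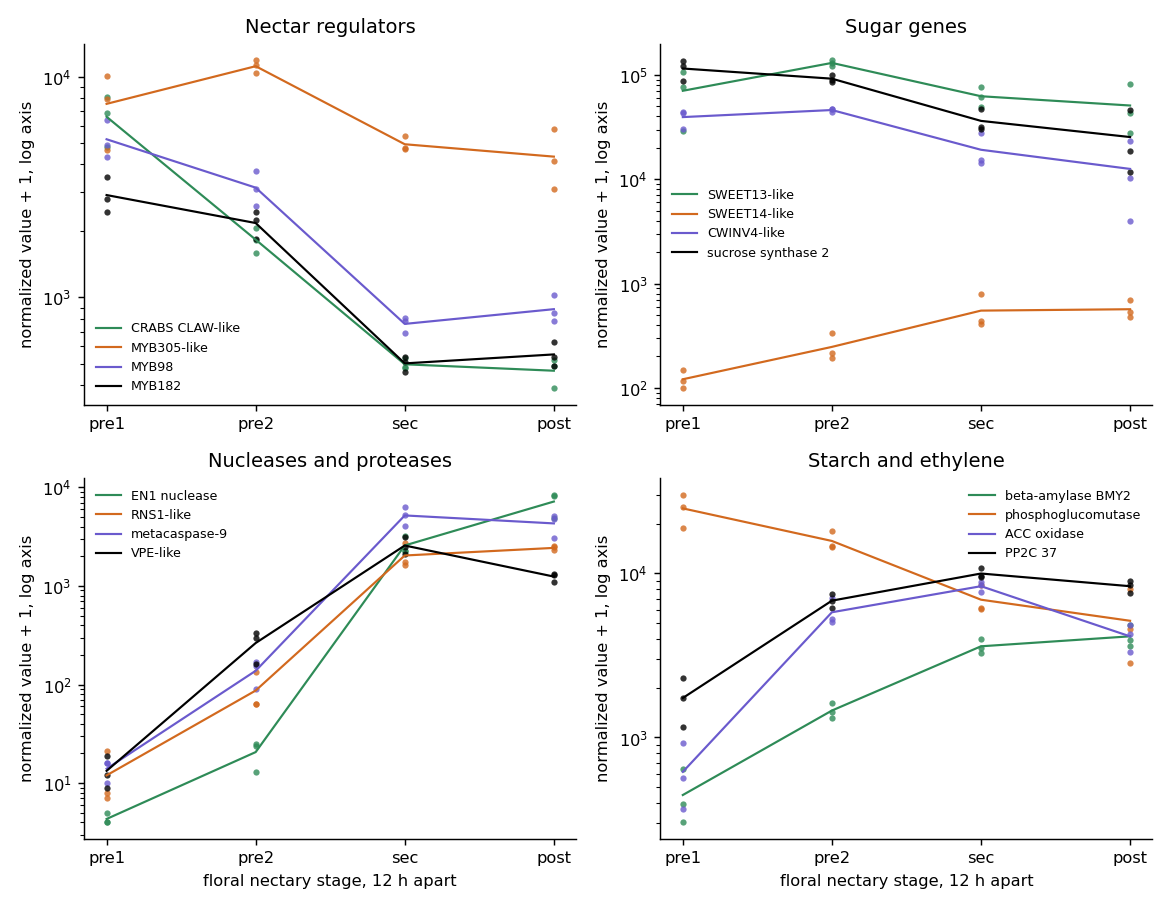
Value + 1 (log axis) of 16 named transcripts at the 4 floral stages, 12 h apart; points are the 3 libraries of each stage and lines join the stage means. CRABS CLAW-like, MYB98 and MYB182 are lowest at the last 2 stages, the SWEET13-like and MYB305-like lines peak at pre2, and the nucleases and proteases climb at every step to the secretory stage.

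Secretion also needs water and proton gradients and vesicles. Of 10 aquaporins, 1 rose, 1 fell and 8 were not called (median -0.19). The rise was large: LOC100803259, a PIP1-4-like plasma membrane aquaporin, stood at 3, 3 and 3 at pre1 and 335, 266 and 303 at the secretory stage (6.23 ± 0.45, limma adjusted p = 4.61e-09). It was at 0, 1 and 1 at pre2, so all of the rise lay in the last 12 h. The SIP1-2-like LOC100792787 fell by 2.48 on the log2 scale.

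Proton pumps counted 0 rises, 4 falls and 6 uncalled in 10 rows, with a median of -0.31, and 2 falls without secretory library 1. The vacuolar pyrophosphatase LOC100812548 went from 12443, 13275 and 14534 to 3241, 3244 and 3543, a 4.01-fold fall (-2.00 ± 0.32, limma adjusted p = 4.49e-05). Among the plasma membrane pumps, LOC100805218 is also 1 of the 10 rows with the highest secretory mean, and its values of 23079, 35781 and 42581 against 25310, 28543 and 31705 overlapped (-0.21 ± 0.30). In the exocytosis list 2 of 18 rows rose, 6 fell and 10 were not called (median -0.22). A syntaxin-121-like row, LOC100808718, a docking protein of the plasma membrane, rose by 1.24 ± 0.28, and the vesicle protein LOC100820382 fell by 0.79 on the log2 scale. The exocytosis falls numbered 3 without secretory library 2 or pre1 library 1.

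In the ethylene list 8 of 11 rows rose, 0 fell and 3 were not called, with a median of 1.05. The ACC oxidase LOC100819184, of the enzymes that form ethylene, went from 565, 366 and 919 to 8837, 7669 and 8523, a 14.5-fold rise (3.85 ± 0.33, limma adjusted p = 3.18e-08). A second, LOC100815336, went from 411, 473 and 715 to 5148, 6248 and 5876 (3.47 ± 0.57). Both had reached most of this by pre2, where LOC100819184 stood at 5071, 7046 and 5248. A transcript of the receptor ERS1-like LOC100802569 rose by 1.74 ± 0.20.

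In the abscisic acid list 9 of 13 rows rose, 1 fell and 3 were not called (median 1.05). LOC100796161, protein phosphatase 2C 37, of the clade that restrains the hormone's signal and is induced by it, went from 1158, 1741 and 2317 to 10806, 9489 and 9604, a 5.95-fold rise (2.57 ± 0.20, limma adjusted p = 9.45e-09). LOC100818568, of the same family, rose by 2.01 ± 0.20. LOC100813715, matched to CAP160, a protein linked to cold and drought, went from 1, 0 and 1 to 281, 208 and 137 (6.99 ± 0.47). Each of the ethylene and abscisic acid lists had 7 rises without pre1 library 1.

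Jasmonate, which in several species controls nectar output, showed no single direction. In its synthesis list 5 of 13 rows rose and 2 fell (median -0.10), beside 25.2% and 20.7% over all rows. The 2 falls were the peroxisomal acyl-CoA oxidases ACX1;1 (-2.27 ± 0.22) and ACX1;2 (-1.79 ± 0.19), which shorten the jasmonate precursor. LOC547869, a lipoxygenase-3, rose from 2, 1 and 1 to 116, 65 and 154. The list takes in lipoxygenases by their match, and whether this one makes the jasmonate precursor was not tested. In the signalling list 1 of 9 rows rose and 4 fell (median -0.75). The rise and the falls were all JAZ repressors of the hormone's signal. LOC100306282, matched to JAZ11, went from 46, 20 and 41 to 461, 447 and 488 (3.75 ± 0.27, limma adjusted p = 4.37e-09), and LOC100778559, matched to JAZ6, from 2121, 3045 and 2489 to 432, 309 and 315 (-2.86 ± 0.38).

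For auxin, 11 of 25 rows rose, 4 fell and 10 were not called (median 0.62). The falls dropped to 1 or 2 whichever of the 6 libraries was left out. The 3 members with the smallest adjusted p are Aux/IAA repressors, early response genes of the hormone. LOC100803986, IAA16-like, went from 775, 1084 and 1339 to 3822, 3905 and 3773 (1.88 ± 0.20, limma adjusted p = 6.49e-07), LOC100305535 rose by 2.75 ± 0.38 and LOC100811879 by 3.94 ± 0.37. In the gibberellin list 3 of 7 rows rose and 1 fell (median 0.25), beside 25.2% and 20.7% over all rows. A biosynthetic GA 20-oxidase, LOC100816992, went from 2, 7 and 4 to 252, 211 and 203 (5.49 ± 0.86), and an inactivating GA 2-oxidase, LOC100818088, rose by 2.53 ± 0.51. A forming and a removing enzyme of the hormone were thus both higher.

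Several families of transcription factors were counted, beside 25.2% rises and 20.7% falls over all rows. Of 24 NAC rows, 14 rose, 2 fell and 8 were not called, with a median of 1.79. NAC15, of a family known for regulators of leaf senescence and stress, went from 229, 335 and 568 to 4435, 4139 and 4115, a 12.0-fold rise (3.58 ± 0.25, limma adjusted p = 3.41e-09). NAC22 rose by 1.57 ± 0.14. Of 20 ethylene response factors, 9 rose and 1 fell (median 0.92), among them ERF6 (2.67 ± 0.37) and LOC100815913 (3.60 ± 0.50). Of 15 WRKY factors, linked to defence and senescence, 6 rose and 2 fell (median 0.45), and WRKY82 (LOC732589) went from 45, 53 and 95 to 514, 479 and 561 (3.06 ± 0.24). The WRKY falls numbered 0 without secretory library 1, secretory library 3 or pre1 library 3, and 1 without secretory library 2 or pre1 library 2.

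Of 14 floral organ identity rows, 2 rose, 4 fell and 8 were not called (median -0.15), near the 45.9% called over all rows. Without secretory library 2 or pre1 library 1, 1 rose and 3 fell. LOC100797238, APETALA 2-like, which specifies the outer organs, went from 573, 911 and 993 to 121, 154 and 164 (-2.46 ± 0.28, limma adjusted p = 9.52e-07). Its level at pre2 was still 773, 727 and 856. The AGAMOUS-like LOC100776263, of the reproductive organs, had 1284, 1482 and 1390 against 745, 699 and 878 and passed narrowly (-0.84 ± 0.32, limma adjusted p = 0.036). That call was lost when any 1 library other than secretory library 3 was left out.

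Cell wall enzymes changed in both directions, as did all rows, of which 25.2% rose and 20.7% fell. Of 12 xyloglucan endotransglucosylases, which cut and rejoin wall polymers, 5 rose and 1 fell (median 0.52). LOC102661404 went from 9, 1 and 10 to 190, 155 and 148 (4.77 ± 0.77), and LOC100785313 was listed at 0 in all 3 pre1 libraries and stood at 32, 28 and 23 at the secretory stage. Of 21 pectin rows, 7 rose and 7 fell (median -0.29, and 0.40 without pre1 library 1). LOC100797601, a polygalacturonase matched to ADPG2, an enzyme of organ shedding and pod opening in Arabidopsis, went from 1, 1 and 2 to 413, 252 and 586. Its secretory values were far above every pre1 library, a rise of 7.43 ± 0.51 (limma adjusted p = 2.85e-09), and 2, 6 and 3 at pre2 put it in the last 12 h. The pectin acetylesterase LOC100788448 rose by 3.54 ± 0.38. The pectin list includes 2 polygalacturonase inhibitors, LOC548022 (-1.85 ± 0.54) and LOC100783399 (-3.40 ± 0.94), named after their values were seen, and both fell.

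Of 5 expansins, which loosen the wall, 1 rose and 1 fell, beside 25.2% and 20.7% over all rows. Their median of -0.19 was 0.24 without pre1 library 1. EXP1 rose from 1, 3 and 4 to 26, 19 and 24, and expansin-A4 LOC100820154 fell by 1.63 on the log2 scale. The list of cellulose synthases held 1 row, the cellulose synthase-like D5 LOC100804687, which is also the only row of the xylem list. It was not called, with 2631, 1754 and 1711 against 1418, 2002 and 1552.

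Cell division genes were lower. Of 21 rows on the list of the cell cycle and DNA replication, 12 fell, 3 rose and 6 were not called (median -1.01). Histone H1.2-like LOC100810590 went from 6492, 4378 and 4563 to 1485, 1331 and 1864 (-1.71 ± 0.20, limma adjusted p = 1.89e-06), and the histone H4 LOC100778317 fell by 1.51 on the log2 scale. The 3 rises are not cyclins: 2 are inhibitors of cyclin-dependent kinases, such as LOC100781000 (1.31 ± 0.22), which halt the cycle, and the other is a CDKG kinase transcript. The words of the list for D-type cyclins also take in any description with cyclin-dependent, by wording alone. The summed level of the list was 21351 in pre1 library 1 and 11584 to 11739 in the other pre1 libraries, against 7934 to 8471 in the secretory ones. Without pre1 library 1, 10 rows fell and 3 rose.

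Of 5 tubulin rows, 0 rose and 2 fell (median -0.46, and 0.14 without pre1 library 1). The alpha-tubulin LOC100781185 had 6067, 2843 and 2710 at pre1 and 1277, 1093 and 1314 at the secretory stage (-1.56 ± 0.31, limma adjusted p = 0.000399), and the other fall was a folding cofactor. Without pre1 library 1, 1 row rose, and the falls numbered 1 without any 1 library other than pre1 library 2. Cytosolic ribosomal proteins stayed mostly uncalled, with 1 rise, 4 falls and 42 uncalled among 47 rows (median -0.17, and 0.15 without pre1 library 1). Their summed level was 19495 to 40034 in the pre1 libraries, a range that held the 20535 to 24185 of the secretory ones. The falls were not stable: 0 rows fell without pre1 library 1, where 3 rose, 0 fell without secretory library 2, 2 fell without secretory library 1 and 1 fell in the fit of the 6 libraries alone. The rise in the full fit was LOC100779884, an L10 protein, from 45, 69 and 90 to 830, 791 and 1472 (3.90 ± 0.55). Of 2 ribosome biogenesis rows, 1 rose, the nucleolin-like LOC100789712 (1.06 ± 0.25).

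Among secreted and protective proteins, 7 of 13 rows of the list of defence and nectar proteins rose, 0 fell and 6 were not called (median 0.64). Among the uncalled are 2 transcripts of a germinal center kinase, taken in by its name alone. OLPa, an osmotin-like antifungal protein, went from 0, 0 and 1 to 109, 121 and 140 (6.62 ± 0.53, limma adjusted p = 1.36e-08). OLPb, of the same family, went from 1, 1 and 5 to 137, 165 and 123 (5.62 ± 0.52), and the chitinase LOC100784196 from 2, 1 and 1 to 45, 48 and 86. The summed level of the list was 36042 to 65449 in the pre1 libraries and 20806 to 25084 in the secretory ones. The list includes 2 further rows that were not called, named after their values were seen: the snakin-2-like LOC100795140, with 26158, 47442 and 36357 against 9097, 7135 and 11868, and the acidic endochitinase LOC100815291, with 6778, 14492 and 11830 against 5944, 5081 and 5096. In both, every secretory library lay below every pre1 library. The SE of the full fit also draws on leaf and extrafloral nectary libraries. In the fit of the 6 libraries alone, 7 rows of the list rose and 3 fell.

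Of 6 lipid transfer rows, 2 rose and 1 fell (median 0.26), with LOC100802241 at 98, 86 and 159 against 893, 983 and 943. In the phenylpropanoid and flavonoid list 5 of 9 rows rose and 1 fell (median 1.17), led by O-methyltransferases such as LOC100780100, from 71, 46 and 83 to 681, 667 and 570 (3.28 ± 0.34), and LOC100799303 (4.79 ± 0.74). Terpene synthases, which make floral scent, matched 0 rows. Of 6 rows for fatty acid beta-oxidation and oil bodies, 2 rose, among them the caleosin-type peroxygenase LOC100813066 (3.01 ± 0.42), and 2 fell, the acyl-CoA oxidases named above.

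**Figure D4:**
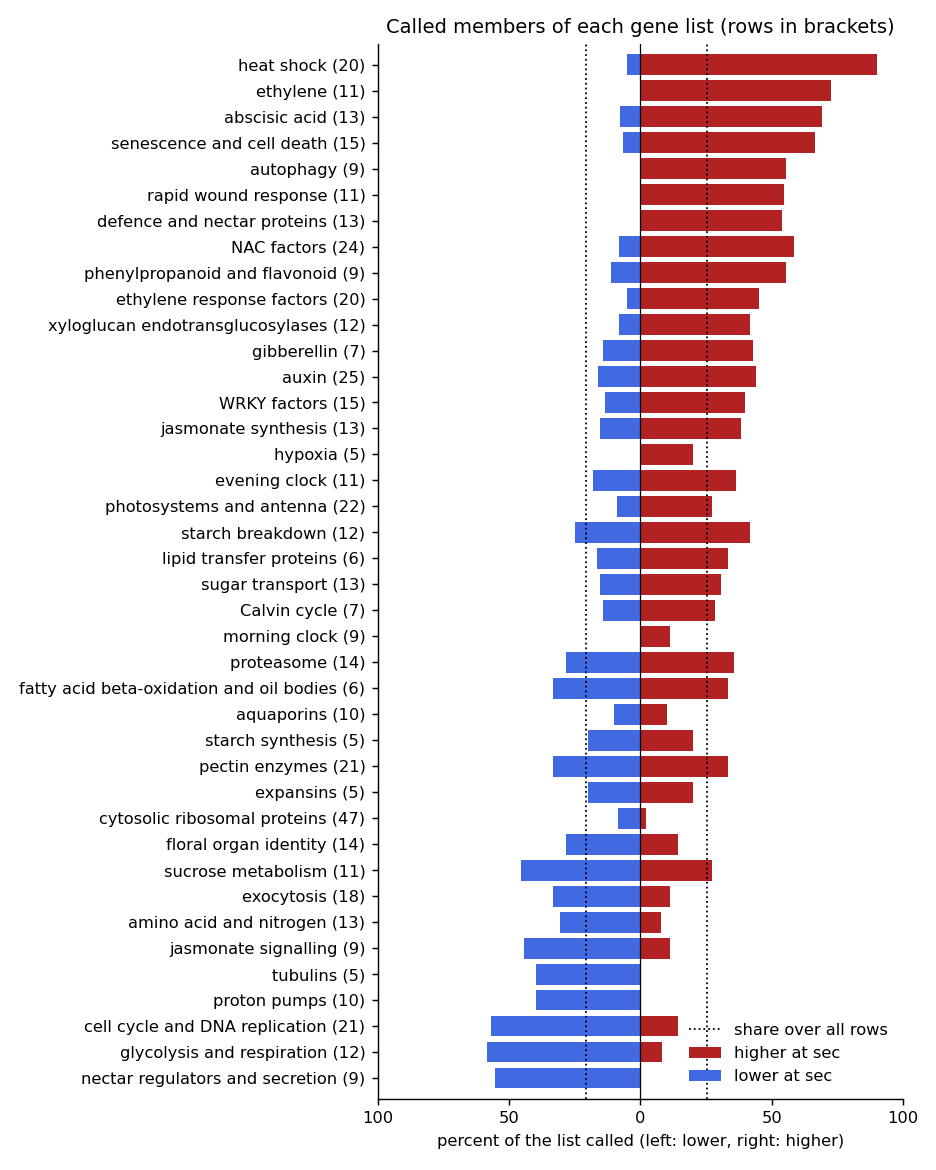
Share of each gene list with at least 5 rows that was called higher (right, red) or lower (left, blue) at the secretory stage, in percent, with the number of rows in brackets; dotted lines mark the shares over all rows, 25.2% higher and 20.7% lower. Heat shock (18 of 20 rows), ethylene (8 of 11) and abscisic acid (9 of 13) reach farthest right, and nectar regulators (5 of 9), glycolysis (7 of 12) and cell cycle genes (12 of 21) farthest left.

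In the heat shock list 18 of 20 rows rose, 1 fell and 1 was not called, with a median of 2.07. Its summed level was 19342 to 27672 in the pre1 libraries and 63944 to 70791 in the secretory ones. Beside HSP18.5-C, HSP22.5 went from 1, 1 and 4 to 247, 254 and 257 (6.55 ± 0.49, limma adjusted p = 6.29e-09). LOC100787543, a constitutive 70 kDa chaperone, went from 8272, 7828 and 12907 to 32417, 28610 and 33413 (1.74 ± 0.29), and LOC100812897, an activator of the 90 kDa chaperone, rose by 2.40 ± 0.21. Rapid wound response genes had 6 rises and 0 falls in 11 rows (median 1.69), with a summed level of 1389 to 1905 at pre1 and 2814 to 3777 at the secretory stage. They were led by LOC106797757, matched to WRKY33, from 11, 8 and 15 to 289, 293 and 299 (4.62 ± 0.30). Heat and wound genes can mark handling of the tissue. Their part in the other rises was not tested.

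The hour of day was similar by design. Of 9 morning clock rows, 1 rose and 0 fell (median 0.20), and of 11 evening rows 4 rose and 2 fell (median -0.13), beside 45.9% of all rows called. Without pre1 library 3 the morning rises numbered 3. The morning median was -0.06 without pre1 library 1. LHY, a morning repressor of the clock, measured 1546, 2490 and 4203 against 3191, 4753 and 5581 in the transcript of LOC780540 with the smaller adjusted p (0.80 ± 0.37, limma adjusted p = 0.088). It was called without pre1 library 3 (1.16, limma adjusted p = 0.0192). A transcript of the pseudo-response regulator PRR95, which is on both lists, rose by 1.81 ± 0.32. ZTL2, a blue-light receptor that acts on evening clock proteins, went from 3086, 3854 and 4061 to 1792, 1623 and 1697 (-1.10 ± 0.18). The evening rises numbered 2 without secretory library 1 or pre1 library 1, and the evening falls 4 in the fit of the 6 libraries alone.

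The dissected piece could hold other tissues. Of 22 photosystem and antenna rows, which mark green tissue, 6 rose and 2 fell (median 0.50). Their summed level was 763 to 1162 at pre1 and 1501 to 1762 at the secretory stage, beside 308846 to 589162 in leaf. LOC100808379, a chlorophyll a-b binding protein, went from 49, 65 and 71 to 200, 241 and 148. The 2 falls were lost without secretory library 1, secretory library 2 or pre1 library 1. Of 7 Calvin cycle rows 2 rose and 1 fell (median -0.57). The fall was transketolase LOC100805786, from 494, 313 and 280 to 64, 64 and 77 (-2.35 ± 0.21), and the rises were rubisco activases that stood at 22 or less in all 6 libraries. Neither rise held with a pseudocount of 10, without secretory library 1, secretory library 2 or pre1 library 2, or in the fit of the 6 libraries alone, which called 0 rises and 4 falls.

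Of 4 carpel and ovule rows, 0 rose and 2 fell, with a summed level of 4559 to 5602 at pre1 and 4059 to 4659 at the secretory stage. Both falls were lost without secretory library 1, secretory library 2, pre1 library 2 or pre1 library 3, and 1 was left without either of the other libraries. The epidermis list held 1 row, the 3-ketoacyl-CoA synthase LOC100785983, an enzyme of fatty acid elongation, which fell from 842, 497 and 800 to 202, 204 and 257. The pollen and anther list matched 0 rows. No row on these lists was at 0 throughout either stage. For the secretory stage, the apparent filter on its library 1 fixes that in advance. The phloem, xylem and epidermis lists held 1 row each, so these values cannot show which tissues were present. The part of other tissues in the changes was not tested.

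Some other small counts also moved by more than 1.5 times when 1 library was left out. Without secretory library 2, 1 ethylene row and 2 aquaporins fell, and without pre1 library 2 the aquaporin rises numbered 2. Without pre1 library 1, 2 ribosome biogenesis rows rose and 1 hypoxia row fell. Without secretory library 1 or pre1 library 1, 1 defence row fell and SUT1, the phloem row, was called lower. The ethylene response factors had 0 falls without either of these or secretory library 2, and the beta-oxidation list had 1 rise without any of these or pre1 library 3. The fit of the 6 libraries alone called 3 defence falls, 3 aquaporin falls, 3 nitrogen rises and 2 morning clock falls. With a pseudocount of 10 the gibberellin and xyloglucan lists had 2 falls each, and at equal upper quartiles 3 aquaporins and 2 ethylene rows fell.

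Where the change lay within the 24 h differed between genes. Of the 1604 rises, 464 were called as a rise in the step from pre1 to pre2 only, 481 from pre2 to the secretory stage only, 207 in both steps and 452 in neither. Of the 1315 falls the counts were 270, 372, 69 and 604. Each 12-h step joins stages at different hours of the day. The steps were called at 19.5% and 21.4% of all rows.

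The secretory and pre1 pair was set beside the other pair 24 h apart, post and pre2, with which it shares no library. The change differed between the pairs at 928 of 6359 rows (14.6%), with 630 positive (9.91%) and 298 negative (4.69%) differences. Leaving out 1 library moved that count most without pre1 library 1 (579), pre2 library 2 (591) or post library 2 (601), and a fit of the 4 floral stages alone gave 1488. In the other pair, 2426 rows (38.2%) were called. Of these, 1462 were called in the same direction in both pairs, which is 50.1% of the calls of the secretory pair and 60.3% of those of the other, and 91 were called in opposite directions. Among the 1604 rises, 485 differed between the pairs, and in 455 of them the rise to the secretory stage was the larger. Among the 1315 falls, 178 differed, 162 with the larger fall toward the secretory stage. Both sets were chosen by their call in the secretory pair, whose change is part of the difference. That direction was therefore favoured in advance.

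**Figure D5:**
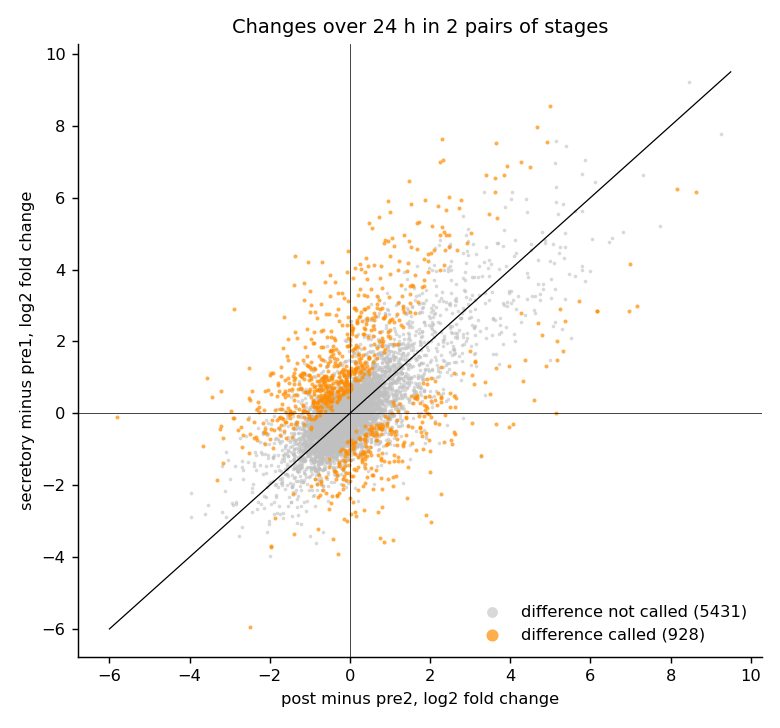
Log2 fold change of each transcript from pre2 to post (x axis) and from pre1 to the secretory stage (y axis), 24 h each, with no shared library; orange points are the 928 rows whose 2 changes differed, grey points the others, and the line marks equal changes. Most orange points lie above the line, with 630 positive and 298 negative differences.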

How the data were processed

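RNA of 21 libraries, 3 from each of 7 tissues, was sequenced as paired-end reads of 50 bp, per the labels' protocols. The authors assigned bean reads to soybean transcripts and deposited score values, upper-quartile-normalized mapped counts in whole numbers, per the file headers. The submitters' processing notes name DESeq without its role, and the read mapper is not given in the sources used here. Raw depth cannot be recovered from these values, so no count model was run and no counting interval is given.

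The values were analysed as log2(value + 1) with limma 3.58.1 in R 4.3.3. The fit had 7 group means over 21 libraries (14 residual degrees of freedom) and an intensity trend, with two-sided tests and Benjamini-Hochberg adjustment over all 6359 rows, at 0.05. The procedure was tested on simulated data. Of the rows, 2231 are uncharacterized and 5757 carry an Arabidopsis match, 1133 of them to several loci.

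The 154 genes of the naming rule are the 10 most increased and 10 most decreased called rows, the 10 highest secretory means, the whole nectar list and up to 3 rows of smallest adjusted p in each other list. The 10 and 10 also needed libraries without overlap and a higher-side mean of at least 492.9, the 75th percentile of row means. The 48 lists, 2 of which matched 0 rows, are Arabidopsis loci or words in the row descriptions. The comparison, members and lists were chosen with earlier results of these data known. Alternatives were pseudocounts of 10 and 0.5, a minimum mean of 10, fewer libraries, no trend, other scalings, a replicate block and leaving out each library. Leaf and extrafloral nectary libraries entered the fit only.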

Additional observations from a re-analysis of the deposited data

Results flagged for a closer look

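The 24-h difference was called for 55 of the 154 named transcripts, and single values are given for the 10 most increased, the 10 most decreased and the nectar list. For 15 of these 28 transcripts, the change from pre1 to the secretory stage differed from the change from pre2 to post, another span of 24 h in other libraries. Each value below is the first change minus the second on the log2 scale, tested in the same limma fit with adjustment over all rows. The 10 most increased and 10 most decreased were picked by the size of the first change, which favours a difference in its direction.

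Among the rises, the excess toward the secretory stage was 5.34 for the vacuolar processing enzyme LOC547964 (limma adjusted p = 9.78e-06) and 3.56 for metacaspase-9 LOC100781510 (0.000392). It was 4.73 for LURP-one-like LOC100306504 (0.00172), 3.87 for peroxidase 15-like LOC100804829 (0.0134) and 3.31 for HSP18.5-C (0.00392). The factor ATHB-7-like LOC100793260 had 2.71 (0.000777), and the RNS1 match LOC100305644 had 2.65 (0.0391). EN1, the largest rise, was not among them (0.74, limma adjusted p = 0.588): it also rose from pre2 to post, by 8.46.

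Among the falls, the difference was -4.22 for the phosphodiesterase LOC100807698 (limma adjusted p = 0.0192), -3.64 for calreticulin-1 LOC100037475 (9.99e-05) and -3.45 for the BIG PETAL P match LOC100306638 (0.0102). It was -3.09 for the GDAP2 homolog LOC100818380 (0.0019), -1.74 for the oxygenase LOC100776159 (0.0208) and -1.72 for the CRABS CLAW match LOC100500026 (0.000647). The CRABS CLAW match also fell from pre2 to post, by 1.97 on the log2 scale.

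On the nectar list, CWINV differed by 1.28 (limma adjusted p = 0.0272), with a change of -1.99 from pre2 to post against -0.71. The NPR5-like LOC100816086 differed by 2.05 (limma adjusted p = 8.76e-05), with -1.61 from pre2 to post against 0.44.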

How the results depend on the processing

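The counts of rises and falls stayed within 1.5 times their values of 1604 and 1315 under every setting run. Leaving out 1 library gave 1343 to 1558 rises and 964 to 1188 falls. The count of 928 transcripts whose 24-h changes differed was 1488 in a fit of the libraries compared and 579 to 1048 with 1 library left out, lowest without pre1 library 1 and highest without pre1 library 3. Of the 154 named transcripts, 131 were called, 119 of them under every setting that tested them. The call was lost under at least 1 setting by 12, and 10 uncalled ones gained it under at least 1. None reversed. A minimum mean of 10 tested 149 of the 154, and the setting of at least 10 in secretory library 1 tested 153. The cause of these moves was not tested.

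Same-numbered libraries of both stages deviated together with correlations of 0.185, 0.0446 and 0.00221, beside -0.124 to 0.103 for differently numbered ones. These values cannot settle whether the replicate numbers pair the libraries. A fit with the replicate number as a block called 1573 rises, 1272 falls and 850 differences. Rows with at least 10 in secretory library 1, fitted without that library, gave 1313, 1061 and 661, a setting chosen after the data were seen. Raw depth is unknown, so the precision of low values, such as pre1 values of 0 to 5, cannot be given.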

Other observations

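Some transcripts outside the lists, named here after their values were seen, changed as much as those of the lists. LOC100777400, matched to a haloacid dehalogenase-like hydrolase, went from 102, 106 and 222 at pre1 to 8859, 10056 and 6271 at the secretory stage (5.93 ± 0.31, limma adjusted p = 5.64e-11) and stood at 3536, 3897 and 3941 at post. The inositol transporter LOC100815588 went from 12, 13 and 9 to 666, 1148 and 424 (5.82 ± 0.33, limma adjusted p = 2.19e-10). Its secretory libraries stood above all 3 of post, at 119, 123 and 156. LOC100305842, matched to a SWEET sugar transporter that the words of the sugar list did not catch, went from 83, 112 and 207 to 1569, 1227 and 1074, a change of 3.34 on the log2 scale.

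More enzymes of breakdown were among them. The organelle exonuclease DPD1-like LOC100807346, which degrades organelle DNA in Arabidopsis, went from 98, 87 and 77 to 769, 584 and 594 (2.88 ± 0.19, limma adjusted p = 1.81e-09). The aspartic proteinase SOYAP1 went from 652, 632 and 631 to 5236, 4575 and 2773. EN2, an endonuclease, was listed at 0 in all 3 pre1 libraries and stood at 42, 16 and 49. Among proteins of seed drying, LOC547921 (5.31), MP2 (4.50) and the dehydrin LOC100137078 (4.24) rose, whereas LEA-1 fell by 1.46 on the log2 scale. Among the falls, the YABBY factor LOC100499942 went from 19960, 20991 and 20850 to 2706, 2595 and 3056 (-2.89 ± 0.44), and the potassium channel AKT1-like LOC100781642 from 1042, 1332 and 868 to 120, 106 and 149. None of these had overlapping libraries.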
